A study of Mus musculus with 12 samples.

Results

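The genes described here are 10 genes that mark the hepatocytes around the central vein of the liver lobule or respond to Wnt signalling there: Glul, Cyp2e1, Cyp1a2, Axin2, Lgr5, Rnf43, Tbx3, Slc1a2, Oat and Rhbg. They were chosen by gene symbol, not by their values, and all 10 were found among the 50559 genes in the tables. Liver RNA of C57BL/6N mice was sequenced in 12 libraries, 3 in each of 4 groups, which the titles number as biological replicates. The groups were mice on normal chow (NCD), mice on a high-fat diet with 60% of its energy from fat (HFD), and HFD mice that also received 1 of 2 compounds, C1 (HFD+C1) or C2 (HFD+C2). Both compounds were injected intraperitoneally (5 mg/kg each day), and diets and injections lasted 12 weeks. The series title calls them inhibitors of CYP4A, a family of enzymes that hydroxylate fatty acids. The labels give neither the structures of C1 and C2, nor the sex and age of the mice, nor whether the NCD and HFD mice were injected with a vehicle.

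In the liver lobule, blood flows from the portal tract to the central vein, and hepatocytes along this path do different work. Endothelial cells of the central vein release Wnt ligands and R-spondins, beta-catenin then enters the nucleus of the neighbouring hepatocytes, and with TCF/LEF factors it keeps the pericentral genes on. Those cells make glutamine from ammonia and glutamate and hold much of the liver's drug-metabolizing cytochrome P450, whereas periportal hepatocytes carry out urea synthesis and gluconeogenesis. The 10 genes fall into feedback and receptor genes of the Wnt pathway (Axin2, Rnf43, Lgr5), a transcription factor downstream of it (Tbx3), the glutamine and ammonia genes (Glul, Oat, Slc1a2, Rhbg) and P450 enzymes (Cyp2e1, Cyp1a2). RNA from whole liver holds all zones at once, so a lower level in bulk can be fewer pericentral cells or less RNA per cell, and these cannot be told apart.

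No library lacked any of the 10 genes: the lowest count was 9 reads (Axin2, NCD replicate 1), and all 10 passed the filter on low counts in all 4 comparisons. Between 4281210 reads (NCD replicate 2) and 32124248 reads (HFD replicate 1) fell in genes. NCD replicate 1 stood apart, with 58.2% of its reads outside genes and correlations across genes of 0.912 and 0.939 with the other NCD libraries, which correlated at 0.978 with each other. HFD+C2 replicate 1 stood apart as well, with 47.1% of its reads outside genes and correlations of 0.949 and 0.947, against 0.987 between the other HFD+C2 libraries. Of the 9 hepatocyte markers listed, 8 were analysed and none of these was at 0 in any library. Their summed level was 33788 CPM (counts scaled to a common library total) in NCD replicate 1, 80326 and 85077 in the other NCD libraries, 97736 to 116881 on HFD, 110999 to 122589 on HFD+C1 and 92010 to 162548 on HFD+C2.

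TCF/LEF factors bind DNA at a core written CTTTGA, or TCAAAG on the other strand. The 300-base windows from 250 bases before to 50 after RefSeq starts (build GRCm38.p6) were searched for it on both strands. Windows were found for 7 of the 10 genes (Rnf43 has 2 starts), and Slc1a2, Cyp2e1 and Cyp1a2 held a match. Over all 32851 windows in the table, 16% held a match, so a match in 3 of 7 genes is a description and not a binding site. The stretches of those 3 windows that end before the first annotated exon inside the window are shown on the gene's strand, with the matching letters in capitals, because they are the genes among the 7 searched with that core beside a start.
Slc1a2, chr2:102706188-102706355, plus strand: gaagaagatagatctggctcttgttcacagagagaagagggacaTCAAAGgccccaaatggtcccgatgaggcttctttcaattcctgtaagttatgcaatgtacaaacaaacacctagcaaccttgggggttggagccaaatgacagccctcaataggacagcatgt
Cyp2e1, chr7:140763569-140763738, plus strand: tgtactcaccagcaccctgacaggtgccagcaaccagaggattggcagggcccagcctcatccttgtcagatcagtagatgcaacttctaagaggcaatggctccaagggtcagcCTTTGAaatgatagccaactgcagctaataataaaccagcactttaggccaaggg
Cyp1a2, chr9:57683704-57683905, minus strand: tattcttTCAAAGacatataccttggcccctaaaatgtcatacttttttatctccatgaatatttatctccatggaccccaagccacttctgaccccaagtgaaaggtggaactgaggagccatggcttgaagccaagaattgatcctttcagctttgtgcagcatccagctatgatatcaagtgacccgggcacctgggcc
Counted from the RefSeq start, with bases before it negative, the match lies at -206 in Slc1a2, -135 in Cyp2e1 and -243 in Cyp1a2. Slc1a2 has another match at -77, in sequence annotated as transcribed and not shown. The starts used for Slc1a2 (102706438) and Axin2 (108920349), and the later one of Rnf43 (87699897), lie inside the gene spans given below. The windows of Glul, Oat, Axin2 and Rnf43 did not contain these letters. Windows of Lgr5, Tbx3 and Rhbg were not used here.

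Levels are CPM on library sizes scaled by TMM, a method that makes the bulk of genes comparable between libraries, over all 12 libraries. Changes are log2 differences with standard error (SE) from the quasi-likelihood test of edgeR, fitted for each comparison over every gene that averaged 10 or more counts in its 6 libraries. Adjusted p-values are Benjamini-Hochberg values over all genes tested, and a gene was called at an adjusted p under 0.05. Gene coordinates are those of RefSeq, and strands and exon numbers those of GENCODE. Both are on GRCm38, the build (mm10) named in the submitters' processing notes.

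None of the 10 genes passed edgeR's test in any comparison. In HFD against NCD, edgeR called 0 of the 10, against 6.03% of all 13864 genes tested; DESeq2 called 2 (Slc1a2 and Oat, both lower), and 2298 of the 13864 in all. An unadjusted p under 0.05 was found for 5 of the 10, against 28.9% of all genes: Cyp2e1 and Rnf43 were higher, and Lgr5, Slc1a2 and Oat were lower. That count was 1 (Oat) without HFD replicate 1 and 2 (Slc1a2 and Oat) without HFD replicate 2 or 3. Those 5 were also the genes whose HFD and NCD libraries did not overlap, 5 of 10, against 37.1% of all genes. Which genes had an unadjusted p under 0.05 depended on the setting. With library-total scaling they were Cyp1a2, Lgr5, Tbx3, Slc1a2 and Oat, all lower. By DESeq2, Tbx3, which was lower, took the place of Rnf43. In the main edgeR fit, log2 changes lay above 0 for 3 of the 10, against 48.5% of all genes. The median of the 10 was -0.34, beside -0.02 for all genes. With no filter 5 of the 10 lay above 0 and their median was -0.14, beside -0.62 for all genes. With library-total scaling the median of the 10 was -0.56, beside -0.24.

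In HFD+C1 against HFD, edgeR called 0 of the 10, against 0.0524% of 13358 genes; DESeq2 called 1 (Oat, higher), and 64 genes in all. All 10 log2 changes lay above 0, against 51.2% over all genes, and 4 genes (Lgr5, Rnf43, Slc1a2 and Oat) had an unadjusted p under 0.05, against 7.75% of all genes. That count was 2 (Slc1a2 and Oat) without HFD replicate 1 or HFD+C1 replicate 2, and 6 without HFD+C1 replicate 1. The libraries of these 4 did not overlap, all higher with C1, against 6.36% of genes that were higher without overlap. With libraries scaled by totals alone, Rhbg joined them. The 10 are not independent of each other and share the 3 HFD libraries, and the median log2 change of the 10 was 0.28, beside 0.0063 for all genes. It was 0.18 without HFD+C1 replicate 2 and 0.34 without HFD+C1 replicate 1. In the edgeR fit over all 12 libraries, 2 genes (Slc1a2 and Oat) had an unadjusted p under 0.05.

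In HFD+C2 against HFD, edgeR called 0 of the 10, against 0.0222% of 13503 genes; DESeq2 called 1 (Rhbg, lower), and 35 genes in all. Log2 changes lay above 0 for 6 of the 10, against 52.2% of all genes, and 1 gene (Rhbg) had an unadjusted p under 0.05, against 6.89%. Without HFD+C2 replicate 1 that count was 2 (Cyp1a2 and Rhbg). Without HFD+C2 replicate 3, 3 of the 10 lay above 0 and the median of the 10 was -0.24, in place of 0.07. Without HFD+C2 replicate 1, 7 lay above 0 and the median was 0.18. Slc1a2 was higher and Rhbg lower without overlap, 2 genes of 10, against 13.6% of all genes. The comparisons with C1 and with C2 use the same HFD libraries.

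**Figure D1:**
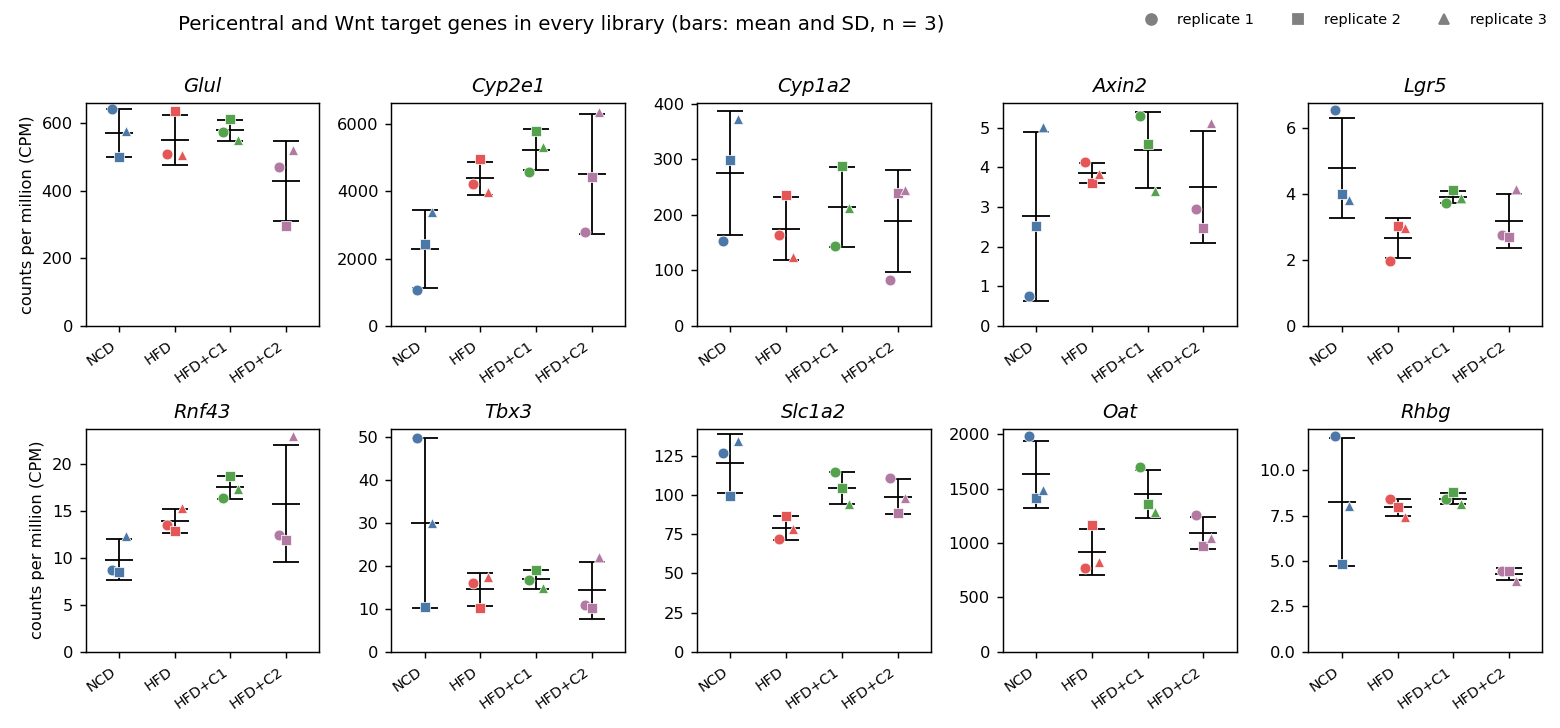
Level of each of the 10 genes in all 12 libraries, in CPM on TMM-scaled library sizes (vertical axes from 0). Colours are groups, symbols are replicate numbers, and bars are the mean and SD of 3 libraries; Rhbg in HFD+C2 (3.90 to 4.46 CPM) sits below every other library, and NCD libraries spread widely for Axin2, Tbx3 and Cyp2e1.

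Lgr5, the R-spondin receptor that strengthens Wnt signalling (chr10:115450314-115587780, minus strand, 18 exons in its longest coding transcript), was low in whole liver. Its level was 6.55, 4.01 and 3.82 CPM in NCD, 1.96, 3.05 and 2.97 on HFD, 3.75, 4.12 and 3.88 on HFD+C1, and 2.75, 2.702 and 4.15 on HFD+C2. All HFD libraries were below all NCD and all HFD+C1 libraries, while HFD+C2 overlapped HFD and HFD+C1. These levels rest on 19 to 99 reads a library. The log2 change was -0.84 (SE 0.33, edgeR adjusted p = 0.14) with the diet, 0.56 (SE 0.22, adjusted p = 0.56) with C1 and 0.26 (SE 0.27, adjusted p = 0.803) with C2. Without NCD replicate 1 the diet change was -0.55, and the C2 change was 0.034 without HFD+C2 replicate 3 and 0.081 without HFD replicate 1.

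Rnf43 encodes a membrane ubiquitin ligase that removes Frizzled receptors and is itself a Wnt target (chr11:87663087-87735539, plus strand, 10 exons). It stood at 8.67, 8.43 and 12.3 CPM in NCD, 13.5, 12.8 and 15.3 on HFD, 16.4, 18.7 and 17.3 on HFD+C1, and 12.4, 11.9 and 23.0 on HFD+C2. NCD lay below HFD and HFD below HFD+C1 without overlap, but the gap between NCD and HFD closed when libraries were scaled by their totals alone. HFD+C2 overlapped both other high-fat groups, with replicate 3 far above the other libraries of its group. The diet gave a log2 change of 0.50 (SE 0.21, edgeR adjusted p = 0.165), C1 0.33 (SE 0.13, adjusted p = 0.527) and C2 0.17 (SE 0.25, adjusted p = 0.86). The C2 change was -0.19 without HFD+C2 replicate 3 and 0.34 without HFD+C2 replicate 2.

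Axin2 encodes a scaffold of the beta-catenin destruction complex and is a widely used readout of Wnt activity (chr11:108917828-108950783, plus strand, 11 exons). Its values were 0.765, 2.53 and 5.01 CPM in NCD, 4.12, 3.61 and 3.83 on HFD, 5.30, 4.58 and 3.41 on HFD+C1, and 2.95, 2.47 and 5.11 on HFD+C2. Every pair of groups compared overlapped, and NCD spanned the range of all the others but 2 libraries. The diet change of 0.43 (SE 0.53, edgeR adjusted p = 0.615) turned to -0.11 without NCD replicate 1, whose level rests on 9 reads, and was 1.42 without NCD replicate 3. C1 gave 0.21 (SE 0.21, edgeR adjusted p = 0.879), from 0.051 without HFD+C1 replicate 1 to 0.36 without HFD+C1 replicate 3. C2 gave -0.14 (SE 0.28, adjusted p = 0.903), from -0.52 without HFD+C2 replicate 3 to 0.059 without HFD+C2 replicate 2.

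Tbx3, a T-box transcription factor that responds to beta-catenin in hepatocytes (chr5:119670534-119684724, plus strand, 7 exons), varied widely among the chow mice. It was 49.8, 10.3 and 29.9 CPM in NCD, 16.1, 10.2 and 17.4 on HFD, 16.7, 19.0 and 14.8 on HFD+C1, and 10.9, 10.2 and 21.95 on HFD+C2. NCD replicate 2, the shallowest library, lay among the high-fat libraries, and the other NCD libraries lay above them all. The diet change was -1.05 (SE 0.47, edgeR adjusted p = 0.177), and without NCD replicate 2 it was -1.41 (adjusted p = 0.0412). Without NCD replicate 1 it was -0.56. The compounds gave 0.21 (SE 0.18, edgeR adjusted p = 0.869) for C1 and -0.03 (SE 0.32, adjusted p = 0.982) for C2. The C1 change went from 0.0050 without HFD replicate 2 to 0.36 without HFD replicate 3, and the C2 change from -0.47 without HFD+C2 replicate 3 to 0.16 without HFD+C2 replicate 2.

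Glul, glutamine synthetase, is restricted to the hepatocytes next to the central vein (chr1:153899929-153909723, plus strand, 7 exons). Its level was 642, 499 and 576 CPM in NCD, 510, 636 and 506 on HFD, 576, 612 and 552 on HFD+C1, and 471, 297 and 521 on HFD+C2. The first 3 groups overlapped within a narrow band, and HFD+C2 replicate 2 was the lowest of the 12 libraries. The diet change was -0.04 (SE 0.19, 95% interval -0.48 to 0.39, edgeR adjusted p = 0.903). With C1 it was 0.07 (SE 0.12, adjusted p = 0.938), and with C2 -0.37 (SE 0.24, interval -0.90 to 0.16, adjusted p = 0.708). The C1 change lay between 0.018 (HFD replicate 3 left out) and 0.19 (HFD replicate 2 left out), and the C2 change was -0.16 without HFD+C2 replicate 2 and -0.52 without HFD+C2 replicate 3.

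Oat, ornithine aminotransferase, links ornithine to glutamate in mitochondria (chr7:132557475-132576398, minus strand, 10 exons). It was 1987, 1416 and 1490 CPM in NCD, 773, 1161 and 823 on HFD, 1699, 1357 and 1287 on HFD+C1, and 1258, 973 and 1044 on HFD+C2. All HFD libraries lay below all NCD and all HFD+C1 libraries, and all HFD+C2 libraries lay below all HFD+C1 libraries. Its diet change of -0.82 (SE 0.24, edgeR adjusted p = 0.073) missed the threshold, as did the C1 change of 0.66 (SE 0.16, adjusted p = 0.255). Without HFD replicate 2 the C1 change was 0.86 (adjusted p = 0.0116). DESeq2 placed the diet change (-0.83, adjusted p = 0.00635) and the C1 change (0.65, adjusted p = 0.0206) past the threshold. The C2 change was 0.24 (SE 0.22, edgeR adjusted p = 0.779), from 0.13 without HFD+C2 replicate 1 to 0.45 without HFD replicate 2.

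Slc1a2 encodes a glutamate transporter that brings glutamate into pericentral hepatocytes (chr2:102658239-102790784, plus strand, 11 exons). Its libraries read 127, 99.1 and 135 CPM in NCD, 71.7, 86.5 and 78.3 on HFD, 115, 105 and 94.3 on HFD+C1, and 111, 88.2 and 98.0 on HFD+C2. HFD was the lowest group, without overlap with any other, though HFD+C2 and HFD overlapped when libraries were scaled by totals alone. The diet change was -0.60 (SE 0.18, edgeR adjusted p = 0.0809; DESeq2 -0.61, adjusted p = 0.0118). C1 gave 0.41 (SE 0.12, edgeR adjusted p = 0.392) and C2 0.32 (SE 0.16, adjusted p = 0.696).

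Rhbg, an ammonium transporter of the Rh family found on pericentral hepatocytes (chr3:88242874-88254739, minus strand, 10 exons), set HFD+C2 apart from the other groups. It was 11.9, 4.85 and 8.05 CPM in NCD, 8.44, 7.97 and 7.45 on HFD, 8.41, 8.79 and 8.14 on HFD+C1, and 4.46, 4.46 and 3.90 on HFD+C2. All HFD+C2 libraries were below all other libraries, and HFD overlapped NCD and HFD+C1. The means of 7.96 ± 0.496 CPM in HFD and 4.27 ± 0.325 on HFD+C2 (SD, n = 3) differed by -0.91 on the log2 scale (SE 0.18, interval -1.31 to -0.50), with an edgeR adjusted p of 0.606 over all genes. Among the 13503 genes tested it ranked 13 by p. DESeq2 gave -0.91 with an adjusted p of 0.0245, and edgeR gave -0.94 to -0.84 with each library left out, including the HFD+C2 library that stands apart, with no call. The diet change was -0.07 (SE 0.30, edgeR adjusted p = 0.892) and the C1 change 0.09 (SE 0.14, adjusted p = 0.939). Leaving out a library moved the former from -0.28 (NCD replicate 2) to 0.21 (NCD replicate 1) and the latter from 0.041 (HFD replicate 3) to 0.13 (HFD replicate 1).

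Cyp2e1, the P450 that oxidizes ethanol and acetaminophen, was the most abundant of the 10 (chr7:140763819-140774990, plus strand, 9 exons). Its level was 1066, 2435 and 3378 CPM in NCD, 4213, 4951 and 3986 on HFD, 4589, 5810 and 5326 on HFD+C1, and 2791, 4414 and 6366 on HFD+C2. NCD lay below HFD without overlap, and the treated groups overlapped HFD. The diet change was 0.95 (SE 0.38, interval 0.09 to 1.81, edgeR adjusted p = 0.144). Without NCD replicate 1 it was 0.59 (adjusted p = 0.0453). C1 gave 0.26 (SE 0.13, adjusted p = 0.705) and C2 0.04 (SE 0.30, adjusted p = 0.977), from -0.29 without HFD+C2 replicate 3 to 0.29 without HFD+C2 replicate 1.

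Cyp1a2, a P450 that metabolizes caffeine and is also induced through the aryl hydrocarbon receptor (chr9:57676937-57683655, minus strand, 7 exons), overlapped in all comparisons. It was 153, 299 and 372 CPM in NCD, 163, 236 and 124 on HFD, 144, 287 and 212 on HFD+C1, and 83.2, 239 and 244 on HFD+C2. NCD replicate 1 and HFD+C2 replicate 1, the libraries that stand apart, held the lowest value of their groups for both P450 genes. The diet change was -0.64 (SE 0.35, edgeR adjusted p = 0.253), and without NCD replicate 1 it was -0.94 (adjusted p = 0.0123). Without NCD replicate 3 it was -0.36 (edgeR adjusted p = 0.535), and without HFD replicate 3 -0.44 (adjusted p = 0.551). C1 gave 0.29 (SE 0.24, edgeR adjusted p = 0.857), from 0.024 without HFD+C1 replicate 2 to 0.57 without HFD replicate 2, and C2 0.11 (SE 0.39, adjusted p = 0.948), from -0.12 without HFD+C2 replicate 3 to 0.46 without HFD+C2 replicate 1.

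**Figure D2:**
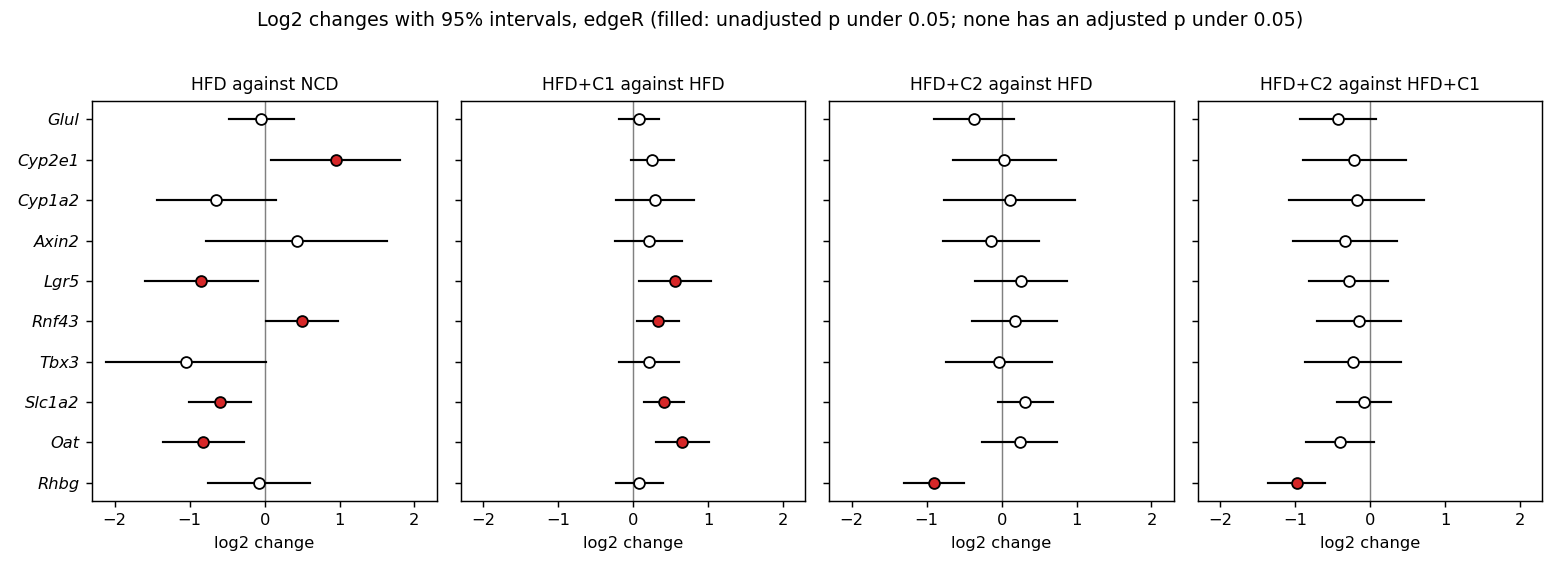
Log2 change of each gene with its 95% interval from edgeR in the 4 comparisons. Filled points have an unadjusted p under 0.05, and none of the 40 has an adjusted p under 0.05. All 10 points lie right of 0 for HFD+C1 against HFD and left of 0 for HFD+C2 against HFD+C1. Both comparisons use the same HFD+C1 libraries.

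The compounds were given at the same dose and for the same time, so HFD+C2 was compared directly with HFD+C1, the only pair of compounds in the study. All 10 log2 differences lay below 0, on the side of lower levels with C2, against 48.3% of all genes. Their median was -0.26, beside 0.012 for all genes. The 10 are not independent, and this comparison shares its 3 HFD+C1 libraries with that of C1 against HFD. With C2 against HFD, 6 of the 10 lay above 0. edgeR called 0 of the 10, against 0% of 13229 genes; DESeq2 called 1 (Rhbg), and 3 genes in all. An unadjusted p under 0.05 was found for 1 gene (Rhbg), against 4.6% of all genes, and Glul, Oat and Rhbg were lower with C2 without overlap, 3 of 10, against 6.09% of all genes that were lower without overlap. Rhbg had the largest difference of the 10, -0.98 (SE 0.17, interval -1.37 to -0.60, edgeR adjusted p = 0.841; DESeq2 adjusted p = 0.0349), and it stayed between -1.02 and -0.92 with each library left out.

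For the other 9 genes the intervals of the difference between the compounds all include 0. Glul differed by -0.43 (interval -0.94 to 0.08) and Oat by -0.41 (interval -0.86 to 0.05). For Slc1a2 the difference was -0.08 (interval -0.44 to 0.28), and for Rnf43 -0.15 (interval -0.71 to 0.42). The widest interval was that of Cyp1a2 (-0.18, from -1.08 to 0.72). Cyp2e1 gave -0.21 (interval -0.90 to 0.47) and Axin2 -0.34 (interval -1.03 to 0.36). Lgr5 gave -0.29 (interval -0.82 to 0.24) and Tbx3 -0.23 (interval -0.88 to 0.41). Without HFD+C2 replicate 3 the median of the 10 was -0.53 and 5 genes (Glul, Axin2, Rnf43, Tbx3 and Rhbg) had an unadjusted p under 0.05, and without HFD+C2 replicate 1 3 genes (Glul, Oat and Rhbg) did. Without HFD+C2 replicate 2 the differences were nearer 0 for Glul (-0.23), Axin2 (-0.14), Lgr5 (-0.18), Tbx3 (-0.036) and Slc1a2 (-0.0038). Without HFD+C2 replicate 3 they were further from 0 for Axin2 (-0.71), Tbx3 (-0.67) and Lgr5 (-0.52), among others. Slc1a2 (-0.068), Oat (-0.37) and Rhbg (-0.92) were then nearer 0. The count below 0 was 8 without HFD+C2 replicate 1, and 9 without HFD+C2 replicate 2 or HFD+C1 replicate 2.

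How evenly the set was measured differed between groups. The median coefficient of variation of the 10 genes over the 3 libraries of a group was 36.1% in NCD, 12.5% in HFD, 10.7% in HFD+C1 and 33.5% in HFD+C2. In HFD+C2, replicate 3 held the highest value of its group for 7 of the 10 genes and replicate 2 the lowest for 7. In NCD, replicate 1 was highest for Glul, Lgr5, Tbx3, Oat and Rhbg and lowest for Cyp2e1, Cyp1a2 and Axin2, so the pericentral genes did not shift together in it. In HFD+C2 the coefficient of variation was 7.61% for Rhbg, 11.5% for Slc1a2 and 13.6% for Oat.

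**Figure D3:**
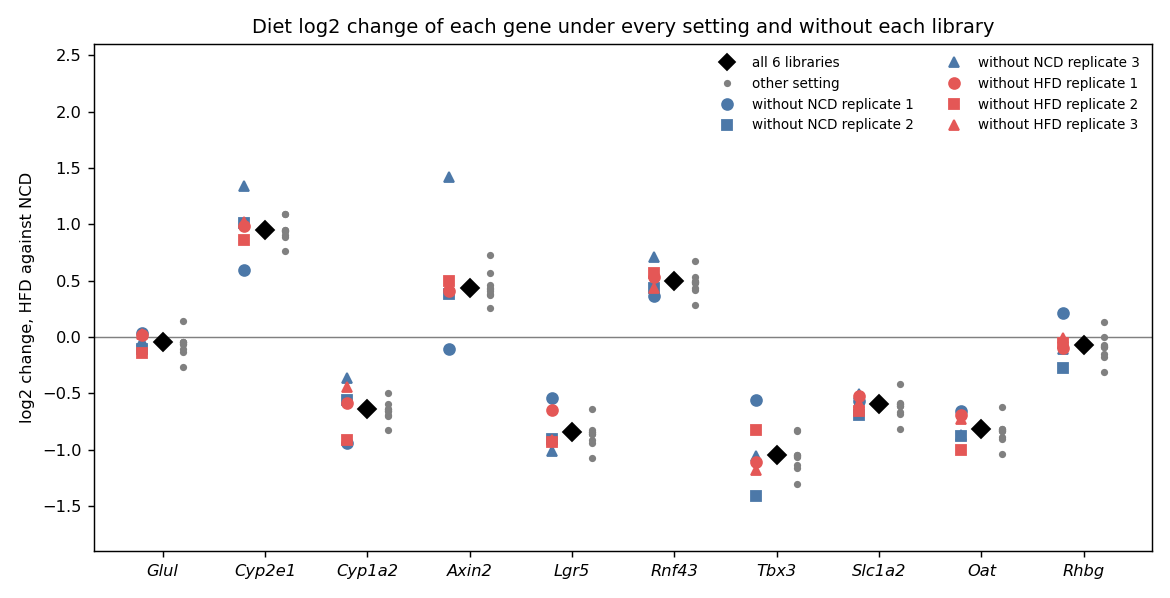
Log2 change of each gene in HFD against NCD with all 6 libraries (black diamonds), without each library in turn (coloured symbols) and under other settings (grey dots). Axin2 moves from -0.11 to 1.42 and Tbx3 from -1.41 to -0.56 as NCD libraries are left out; Glul, Axin2 and Rhbg change sign in some of these fits, and the other 7 genes do not.

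Leaving out NCD replicate 1 changed the diet calls most: edgeR then called 4 of the 10 (Cyp2e1 higher; Cyp1a2, Slc1a2 and Oat lower) and 1838 of 13412 genes in all. Slc1a2 was then at -0.57 (adjusted p = 0.0357) and Oat at -0.66 (adjusted p = 0.0292). Without NCD replicate 2, 1 of the 10 (Tbx3) was called, and 1276 of 14352 genes in all. Leaving out any of the other 4 libraries called none of the 10, and without HFD replicate 1 only 23 of 13900 genes were called.

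Levels were compared between genes per kilobase of the longest coding transcript, as mean CPM per kb, though the transcripts used for counting are not given in the sources used here. In HFD the order was Cyp2e1 (2391), Oat (426.9), Glul (197), Cyp1a2 (89.9), Slc1a2 (6.80), Rhbg (4.11), Rnf43 (3.22), Tbx3 (2.93), Axin2 (0.905) and Lgr5 (0.564). Neighbours in that order overlapped only for Rnf43 and Tbx3. By group means the first 5 places were the same in all 4 groups, but libraries of Cyp2e1 and Oat overlapped in NCD, as did those of Slc1a2 and Tbx3, the next below it, and those of Glul and Cyp1a2 overlapped in NCD and HFD+C2. The Wnt feedback genes Axin2 and Lgr5 held the last places in all 4. In NCD Lgr5 (1.02) stood above Axin2 (0.65), with overlapping libraries. Rhbg held place 7 in NCD, overlapping both neighbours, and place 6 in HFD. In HFD+C1 it held place 6 and overlapped Rnf43, the next below it. In HFD+C2 it held place 8, where its libraries overlapped those of Tbx3, its neighbour above.

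Of 24 other pericentral genes tested, 2 were called with the diet, against 6.03% of all genes, and both fell: Cyp7a1, the rate-limiting enzyme of bile acid synthesis, by 2.68 on the log2 scale (SE 0.29, edgeR adjusted p = 0.00478), and the coumarin hydroxylase Cyp2a5 by 1.23 (SE 0.29, adjusted p = 0.0477). The median over the 24 was -0.02, beside -0.02 for all genes. Cyp7a1 was 52.0, 36.3 and 31.2 CPM in NCD and 7.58, 4.22 and 6.64 on HFD. It lost its call without HFD replicate 3 (adjusted p = 0.0529). Cyp2a5 lost it without NCD replicate 3 (0.0684) and without HFD replicates 1 (0.21), 2 (0.161) and 3 (0.167).

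In the treated groups none of the 24 was called by edgeR. With C1, 19 of 24 were above 0, against 51.2% of all genes, and 8 had an unadjusted p under 0.05, 7 of them higher, against 7.75%. Cyp7a1 had the smallest p (1.27, SE 0.22, adjusted p = 0.0925). Its levels were 16.4, 10.9 and 17.4 CPM in HFD+C1 and 11.01, 31.3 and 13.6 on HFD+C2, all above the HFD libraries. With C2, 14 of 24 were above 0, against 52.2%, and 3 had an unadjusted p under 0.05, against 6.89%. Gstm3, a glutathione transferase, was lower with C2 than in HFD (-1.72, SE 0.36, adjusted p = 0.625) and than with C1 (-0.99, SE 0.21, adjusted p = 0.841), without overlap in both.

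Among 22 periportal genes 2 were called with the diet, against 6.03% of all genes. The diet raised Apoa4, an apolipoprotein of lipid export, by 4.95 (SE 0.53, edgeR adjusted p = 0.00431) and lowered E-cadherin, Cdh1, by 2.88 (SE 0.51, adjusted p = 0.0266). Apoa4 kept its call without each library in turn, and Cdh1 lost it without HFD replicate 1 (adjusted p = 0.18) or 3 (adjusted p = 0.153). The median of the 22 was 0.39 with the diet, 0.10 with C1 and 0.17 with C2. No periportal gene was called with either compound, nor between them. As a single number per library, the mean log2(CPM + 1) of the 24 pericentral genes minus that of the 22 periportal genes was -1.30 to -0.86 in NCD, -1.72 to -1.61 on HFD, -1.54 to -1.37 on HFD+C1 and -2.07 to -1.40 on HFD+C2. HFD libraries were below all NCD and all HFD+C1 libraries, and HFD+C2 replicate 2 was the lowest of the 12. The pericentral mean of HFD (7.12 to 7.22) lay inside the NCD range (6.96 to 7.48). The periportal mean of HFD (8.77 to 8.91) lay above that of NCD (7.81 to 8.71). HFD+C2 replicate 2 had a periportal mean of 9.28, the highest of the 12. Among the 24 and 22 genes, only leaving out Apoa4, an alternative chosen after seeing the data, closed the gap to HFD+C1. HFD, at -1.59 to -1.45, then overlapped HFD+C1, at -1.46 to -1.30, and stayed below NCD (-1.35 to -0.935). The pericentral mean alone, which does not include Apoa4, was 7.12 to 7.22 on HFD and 7.36 to 7.43 on HFD+C1, without overlap.

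Of 10 other Wnt targets tested (14 listed) 1 was called with the diet, near the 6.03% of all genes. Ccnd1, cyclin D1, rose with the diet by 1.29 (SE 0.31, edgeR adjusted p = 0.0485), a call lost without NCD replicate 3 (0.076) and without HFD replicates 1 (0.209), 2 (0.156) and 3 (0.183). Ccnd1 was 2.296, 5.48 and 4.48 CPM in NCD and 8.74, 9.71 and 10.51 on HFD. Of 11 receptors tested (14 listed), Fzd3 had 43, 4 and 12 reads in NCD and 1, 2 and 2 on HFD. It passed the filter on low counts only through its NCD reads, mainly the library with 43, and its HFD counts are below the floor of 3 reads, so its edgeR call is not counted as a result and no fold is given. Without NCD replicate 1 the filter removed it. None of the other receptors was called.

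No ligand, R-spondin, transducer or secreted inhibitor on the lists was called in the diet comparison, over 7, 16 and 3 genes tested (10, 17 and 10 listed, with R-spondins counted among the ligands). Wnt9b, a ligand of the central vein, was 0.17, 0 and 0.37 CPM in NCD (2, 0 and 9 reads). On HFD it was 0.665, 0.532 and 0.652 CPM (20, 15 and 16 reads). It passed the filter only through its HFD reads, and NCD replicates 1 and 2 were below the floor of 3 reads, so no change is given. Apc, of the destruction complex, was higher by 0.79 (SE 0.23, edgeR adjusted p = 0.0695) and the secreted inhibitor Wif1 had 59, 2 and 24 reads in NCD and 7, 5 and 0 on HFD, and passed the filter only through NCD. With C1 or C2, and between them, none of the genes on these Wnt lists was called. Ctnnb1, beta-catenin itself, was 159, 139 and 146 CPM in NCD, 111, 133 and 116 on HFD, 147, 135 and 149 on HFD+C1 and 151, 142 and 142 on HFD+C2. HFD was the lowest group without overlap; the C1 change was 0.26 (SE 0.12, adjusted p = 0.637) and the C2 change 0.27 (SE 0.16, adjusted p = 0.699).

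Of 16 genes for glutamine, glutamate and ammonia handling that were tested (20 listed), none was called in any comparison. With C1, 15 of the 16 were above 0, against 51.2% of all genes, and 3 had an unadjusted p under 0.05, against 7.75%, among them the amino acid transporters Slc38a3 (0.40, SE 0.12, edgeR adjusted p = 0.366) and Slc38a4 (0.35, SE 0.12, adjusted p = 0.461). Of 4 aryl hydrocarbon receptor targets tested (6 listed), none was called in any comparison; Nqo1, a quinone reductase, was higher with the diet (1.29, SE 0.40, adjusted p = 0.0846).

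**Figure D4:**
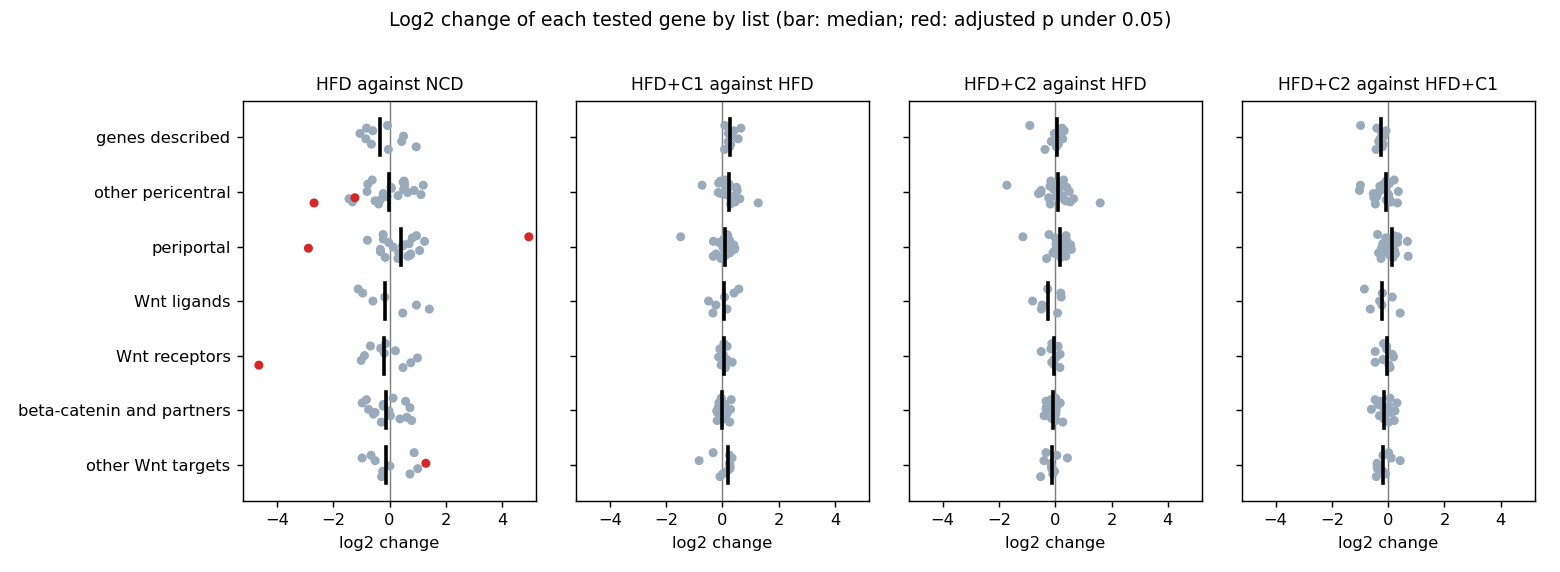
Log2 change of each tested gene on the zonation and Wnt lists in the 4 comparisons; vertical bars are medians and red points have an edgeR adjusted p under 0.05. Red points (Cyp7a1, Cyp2a5, Apoa4, Cdh1 and Ccnd1, and Fzd3, which passed the filter only through its NCD reads and is not counted as a result) appear in the diet comparison alone, and the 10 genes described lie right of 0 with C1.

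Markers of other liver cells moved with some of these comparisons. The 9 Kupffer cell and macrophage markers summed to 223 to 320 CPM in NCD, 208 to 272 on HFD, 325 to 425 on HFD+C1 and 257 to 512 on HFD+C2, and none was at 0 in any library. With C1 all 9 were higher at an unadjusted p under 0.05 (none by adjusted p), against 7.75% of all genes in either direction, and with C2 5 of 9 were, against 6.89%; HFD+C1 and HFD did not overlap in the sum, as for the 4 genes higher with C1. The 11 endothelial markers summed to 84.5 to 108 CPM in NCD, 88.8 to 116 on HFD, 98.9 to 117 on HFD+C1 and 107 to 133 on HFD+C2. The sum of the 8 stellate cell markers was higher in HFD (144 to 161 CPM) than in NCD (96.9 to 128), with 6 of the 8 log2 changes above 0, against 48.5% of all genes. In that comparison, with 6.03% of all genes called, edgeR called 3 of the 8 (Col1a1, Col3a1 and Colec11) and 1 of the 11 endothelial markers (Lyve1) higher, names given after their values were seen; without HFD replicate 1 or 3 none of these 4 was called.

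The 6 cholangiocyte markers summed to 18.3 to 32.7 CPM in NCD and 35.9 to 70.8 in the other groups' libraries, with Cftr at 0 in 7 libraries. B and plasma cell markers were near 0 throughout (7 genes, 2.09 to 10.4 CPM in sum), with Ighm at 0 in all 12 libraries. The part of these cell markers, and of the hepatocyte markers, in the results above was not tested.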

How the data were processed

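RNA-seq of mouse liver was analysed, 12 libraries in 4 groups of 3. The authors deposited 3 tables of read counts per gene, 1 for each of NCD, C1 and C2 with HFD; all values are whole numbers and the HFD columns are identical (0 cells differ). The submitters' processing notes name Trimmomatic 0.39, STAR 2.7, DESeq2 and mm10, with no role or order; counting rules and strand use are not given in the sources used here. The 4 rows that name no gene (27.3% to 58.2% of a library's reads) were kept out. A floor of 3 reads corresponds to 0.0934 to 0.701 CPM and covers counting error only.

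Counts were tested with edgeR 4.0.16 (glmQLFit, glmQLFTest, TMM; R 4.3.3) on the 6 libraries of each comparison, two-sided, over genes averaging 10 or more counts, and the procedure was tested on simulated data. Alternatives were DESeq2 1.42.0, other scalings and filters, robust dispersions, all 12 libraries in 1 fit, a replicate block, and each library left out. No replicate pair agreed within sampling noise. The p-values measure only the spread between these samples.

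Named were the 10 genes, up to 4 called genes of each pathway list by size of change, otherwise up to 2 with the smallest p, and the cell marker lists as sums and counts; the genes most like Glul, Cyp2e1, Axin2 and Lgr5 were ranked by correlation. Wnt9b in NCD and HFD, Ctnnb1 in all groups, Cyp7a1 levels and Gstm3 changes are shown with their values known. The genes and lists were chosen with earlier results of these data known. Exons of annotated genes overlap those of Glul (Mir8114, Teddm2), Tbx3 (Tbx3os1) and Slc1a2 (Gm13872), none above 4 reads in a library; Axin2 and Rhbg also overlap an annotated gene each that was not analysed here.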

Additional observations from a re-analysis of the deposited data

Results flagged for a closer look

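Rhbg, the ammonium transporter, lay on opposite sides of HFD in the 2 compound groups when libraries were scaled by their totals alone: every HFD+C1 library was above the HFD range and every HFD+C2 library below it. With TMM scaling HFD+C1 overlapped HFD. The difference itself, HFD+C2 against HFD+C1, was -0.98 on the log2 scale (SE 0.17, edgeR adjusted p = 0.841 over 13229 genes), lower in 3 of 3 HFD+C2 libraries than in any HFD+C1 library. Both contrasts share the HFD libraries.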

How the results depend on the processing

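Over 9 alternatives with all libraries, 341 values kept their direction and side of the threshold, 14 passed it and 5 reversed; with 1 library left out, 214 kept them, 6 passed and 20 reversed. Of the 10 genes, the diet comparison called 2 (Slc1a2 and Oat) by DESeq2, by the fit over all 12 libraries and by library-total scaling (an alternative chosen after seeing the data), 2 (Cyp2e1 and Tbx3) with no filter, and 0 to 4 with a library left out. With C1 the count was 1 (Oat) by DESeq2 and with no filter, and 0 to 1 with a library left out (Oat without HFD replicate 2). With C2, and between the compounds, it was 1 (Rhbg) by DESeq2 and with no filter, and 0 with each library left out. The diet changes of Glul (0.144) and Rhbg (0.134) reversed with no filter; the cause was not tested. Replicate numbers did not pair the libraries (correlations of same-numbered deviations from -0.224 to 0.295); with a replicate block 0 of the 10 were called in each comparison, 4 of the 10 lay above 0 with C2, and Rhbg with the diet (0.00284), Cyp2e1 with C2 (-0.0392) and Cyp1a2 with C2 (-0.00025) reversed.

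Leaving out a library turned the diet changes of Glul (-0.146 to 0.0346), Axin2 (-0.107 to 1.42) and Rhbg (-0.28 to 0.212); with C2, those of Cyp2e1 (-0.286 to 0.292), Cyp1a2 (-0.117 to 0.465), Axin2 (-0.515 to 0.0585), Rnf43 (-0.195 to 0.34) and Tbx3 (-0.474 to 0.162); and between the compounds, those of Cyp2e1 (-0.535 to 0.0403), Cyp1a2 (-0.402 to 0.175) and Rnf43 (-0.518 to 0.0187). Over all genes, edgeR called 836 with the diet, DESeq2 2298, no filter 4493, a minimum of 50 counts 524, the block 483, all 12 libraries 2418, and leaving out a library 23 to 1838. For C1 these were 7, 64, 206, 5, 36, 0 and 2 to 102, for C2 3, 35, 152, 2, 3, 0 and 0 to 27, and between the compounds 0, 3, 162, 0, 0, 0 and 0 to 1. The median diet change of all genes was -0.02 with TMM, -0.24 with library totals and -0.62 with no filter. The 10 genes were above 0 with C1 in all of these settings and with each library left out. NCD replicate 2 had 4281210 reads in genes, which limits Axin2, Lgr5, Rhbg, Rnf43 and Tbx3 (12 to 49 reads there).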

Other observations

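Over all 12 libraries and 10133 genes averaging 50 or more counts, the genes whose log2(CPM + 1) ran closest to that of 4 of the genes were ranked by Pearson correlation, as a description over libraries that share diet groups, depth and the 2 libraries that stand apart. For Glul these were Id1 (0.82), Ednrb (0.79) and Tle3 (0.78). For Cyp2e1 they were catalase, Cat (0.99), Gclm (0.98) and Mark4 (0.98). For Axin2 they were Slc25a20 (0.96), Arrdc2 (0.93) and Cryab (0.92), and for Lgr5 Dab2, Slc38a9 and Serinc5 (0.93 each).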
